A study of Mus musculus with 9 samples.

Results

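The genes described here encode 10 proteins with which a phagocyte takes up modified lipoproteins, debris and dying cells: the receptors Msr1, Marco, Stab1, Scarb1, Mertk, Axl and Lrp1, the ligands Gas6 and Pros1, and the bridging protein Mfge8. They were chosen by symbol, and all 10 were found among the 18049 genes listed. The libraries are bulk RNA-seq of 9 clones of primary cells (MPC) grown from the tumors that WTg mice form. These mice carry EL1-Luc/EL1-Tag, where luciferase and the SV40 large T antigen are under a pancreatic elastase promoter, crossed with CAG-Mettl3, where Mettl3 is under a promoter active in most cell types. Every clone is of this genotype, with the treatment given as none and with no age given. Minced tumors were plated, and each clone was grown from a colony isolated with a cloning cylinder, so that a library stands for a single clone. The labels call the cells fibroblasts from pancreas.

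Scavenger receptors bind modified lipoproteins, bacteria and altered self molecules at the cell surface and carry them into the cell. Apoptotic cells expose phosphatidylserine, which Mertk and Axl do not bind themselves. Gas6 bridges it to both of these TAM receptor tyrosine kinases and protein S to Mertk, and Mfge8 bridges it to the integrins of alpha v. Mertk is best known from macrophages that clear dying cells without inflammation, whereas Axl and Gas6 are made by many mesenchymal cells as well as by macrophages.

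The column names carry 3 prefixes of unstated meaning: MET with 1 library, Whe10 with 4 (Whe10_10A, Whe10_11A, Whe10_7A and Whe10_8A) and Whe3 with 4 (Whe3_11A, Whe3_12A, Whe3_5A and Whe3_7A). The libraries held about 12198036 (MET) to 20453901 reads on genes, the next lowest being 16526373. Of 14705 genes averaging 10 normalized counts or more, 20.9% were lowest in the MET library and 20.0% were highest there. Its Mettl3 level was 2184 normalized counts, against 468 to 621 in the others. Xist was between 29664 and 32912 normalized counts in the Whe10 libraries and at no more than 8.39 elsewhere, while Ddx3y had 0 reads in Whe10 and 2376 to 2720 normalized counts in the other 5 libraries. The difference of Whe10 from Whe3 therefore cannot be told apart from the sex of the mouse, and no prefix can be told apart from the tumor or the handling. All 16 macrophage markers and 13 of 14 fibroblast markers had more than 3 reads in every library, Epcam had 0 reads in each, and the acinar markers reached 0.00841% of the total in Whe3_5A. The labelled cell type therefore stood beside macrophage transcripts in every clone, and in bulk libraries fewer cells of a type and less RNA per cell cannot be told apart. Nothing says that clones of a prefix came from separate mice, so the p-values measure only the spread between these libraries. A normalized count is the read count times a single scaling factor for the library, and 3 reads were worth 3.79 to 6.56 normalized counts.

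All 10 genes had more than 3 reads in every clone. Between the highest and the lowest clone, the level differed from 1.62-fold for Lrp1 to 21.3-fold for Marco. To compare this spread with that of other genes, the SD of log2 values over the 9 clones was ranked among genes whose mean was within 2-fold. In 9 of the 10 genes the SD was above the median of such genes, and in 8 without the MET library. Gas6 was just above it, at percentile 54.0. Mertk stood at percentile 94.0 with an SD of 0.53, Scarb1 at 91.4 with 0.45 and Stab1 at 90.1 with 0.67. Lrp1 stood at percentile 17.9 with an SD of 0.19, but only 28 genes were of like level. The MET library was the lowest for 5 of the genes (Marco, Stab1, Mertk, Gas6 and Lrp1) and the highest for 2 (Pros1 and Mfge8).

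**Figure D1:**
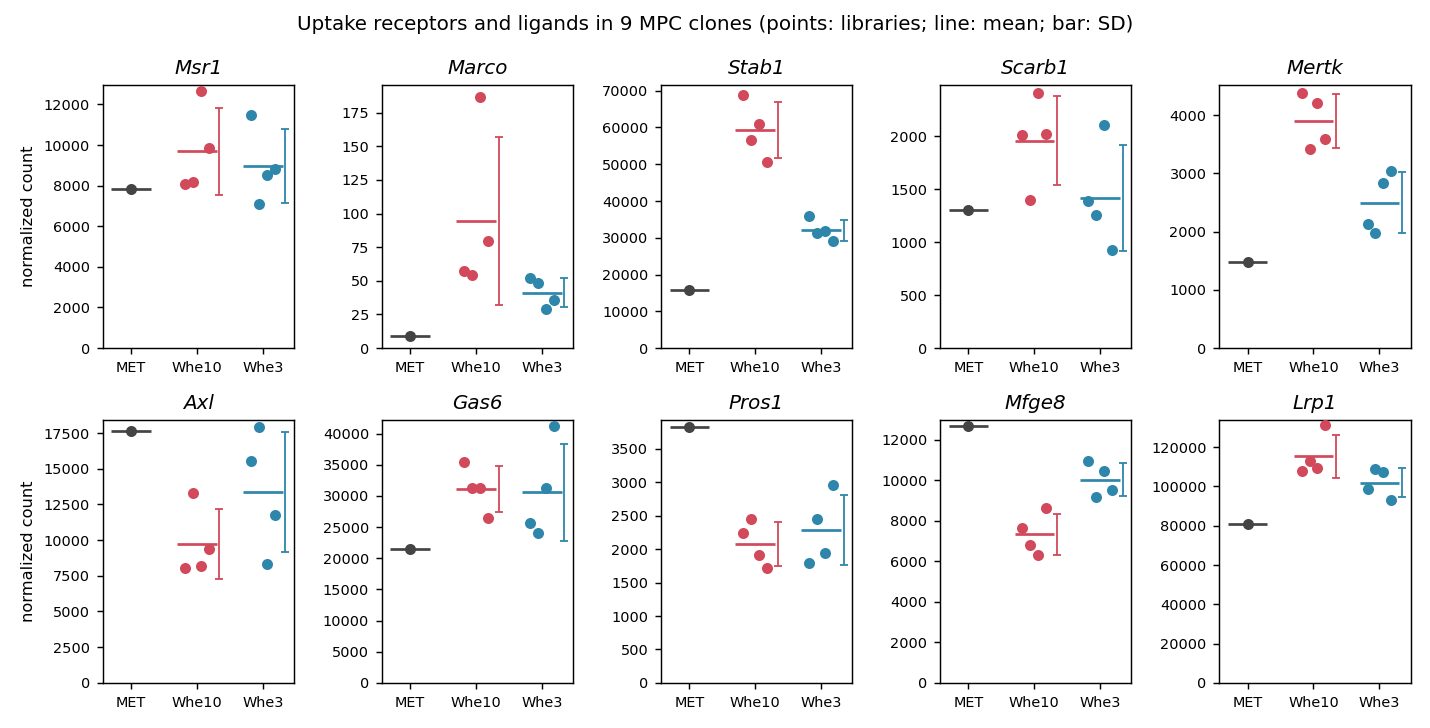
Normalized count (linear axes from 0) of the 10 genes in each library, grouped by column prefix: MET (1 library), Whe10 (4) and Whe3 (4). Points are libraries, horizontal lines are means and vertical bars are the SD of 4 libraries. The Whe10 and Whe3 points do not overlap for Marco, Stab1, Mertk and Mfge8.

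Whether the genes differed between the clones of the 2 larger prefixes was tested with limma on log2(normalized count + 1), over every gene averaging 1 normalized count or more. Stab1 was higher in Whe10 and passed the threshold (log2 difference 0.88, standard error 0.127, adjusted p = 0.0479, limma), and the other 9 genes did not pass. Among all 16985 genes tested, 29 passed (0.171%), 12 of them higher in Whe10 and 17 lower. Stab1 had rank 29 by p and was thus the last gene to pass. Those ahead of it included Xist (adjusted p = 1.5e-05, limma) and Ddx3y (adjusted p = 4.8e-09, limma). Whether Stab1 would pass with such sex-specific genes left out was not tested. At an unadjusted p under 0.05 there were 4 of the 10 genes (Marco, Stab1, Mertk and Mfge8), against 3141 of all genes tested. The levels of the 4 Whe10 libraries all lay above those of the 4 Whe3 libraries in 3 of the 10 genes (Marco, Stab1 and Mertk) and in 5.24% of all genes. They all lay below in 1 (Mfge8) and in 4.23% of all genes. The median log2 difference was 0.14 over the 10 genes and 0.016 over all genes.

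**Figure D2:**
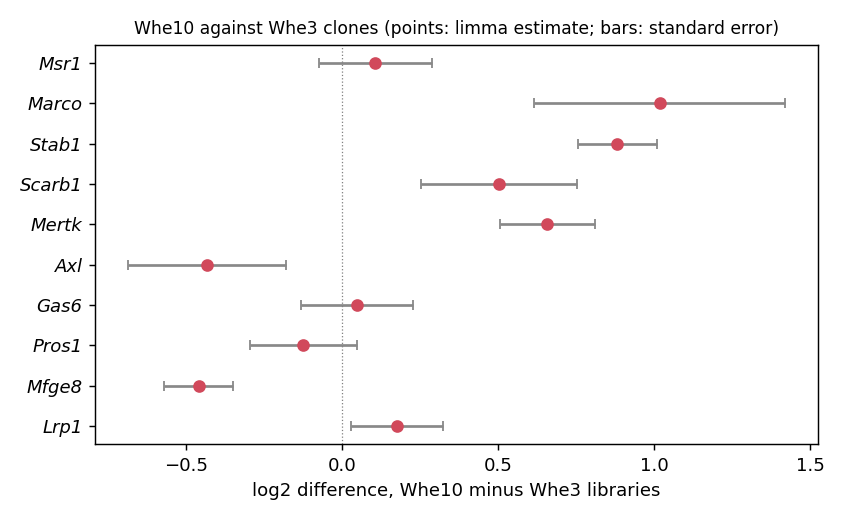
Log2 difference of Whe10 minus Whe3 libraries (4 each) for the 10 genes; points are limma estimates and bars are standard errors. Stab1 (0.88) is the gene that passed the adjusted threshold, while Marco (1.02) has a wide error, and Axl (-0.43) and Mfge8 (-0.46) lie on the negative side.

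Stab1 (ENSMUSG00000042286, chr14:31139017-31168651), a class H scavenger receptor for modified lipoproteins, SPARC and phosphatidylserine, was at 42348 ± 17594 normalized counts (SD, n = 9). It was at 15791 in the MET library, which rests on 7216 reads with a 95% Wilson interval of 15431 to 16159. In Whe10 it was at 68910 (Whe10_10A), 56474 (Whe10_11A), 61016 (Whe10_7A) and 50714 (Whe10_8A). The Whe3 libraries were at 35817 (Whe3_11A), 31407 (Whe3_12A), 31981 (Whe3_5A) and 29019 (Whe3_7A). The 3 prefixes thus formed 3 levels without overlap, and each Whe10 clone stood above every other clone. The means were 59278 ± 7681 in Whe10 and 32056 ± 2816 in Whe3 (SD, n = 4 each), a 1.85-fold difference. The log2 difference was between 0.81 and 0.95 in all settings tried, but the call held in only 5 of 16, with adjusted p between 0.0375 and 0.155 over the 15 alternatives (limma). Leaving out any single library except Whe3_5A took it past 0.05, up to 0.155 without Whe10_7A.

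Marco (ENSMUSG00000026390, chr1:120474538-120505024), a class A scavenger receptor known from alveolar and splenic marginal zone macrophages, was low, and in the MET library near the floor of 3 reads. It was at 61.2 ± 51.0 normalized counts (SD, n = 9) and rested on 4 to 129 reads. The MET library had 8.75, with a 95% Wilson interval of 3.40 to 22.5. The Whe10 libraries were at 57.3 (Whe10_10A), 54.1 (Whe10_11A), 187 (Whe10_7A) and 79.5 (Whe10_8A), and the Whe3 libraries at 51.7 (Whe3_11A), 48.4 (Whe3_12A), 29.4 (Whe3_5A) and 35.4 (Whe3_7A). A single Whe10 clone stood far above the rest, and the gap between the lowest Whe10 and the highest Whe3 library was narrow. The log2 difference of 1.02 had a standard error of 0.402 and did not pass (adjusted p = 0.235, limma).

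Msr1 (ENSMUSG00000025044, chr8:39543232-39642750), the founding class A scavenger receptor, was at 9175 ± 1826 normalized counts (SD, n = 9), from 7115 in Whe3_12A to 12681 in Whe10_7A. The prefixes overlapped, with a log2 difference of 0.11 (adjusted p = 0.767, limma). Scarb1 (ENSMUSG00000037936, chr5:125277087-125341094), a class B receptor that takes up cholesteryl esters from HDL and also binds phosphatidylserine, was at 1645 ± 499 (SD, n = 9). It ranged from 1396 to 2409 in Whe10 and from 922 to 2104 in Whe3, and was at 1304 in the MET library. The ranges overlapped, and the log2 difference of 0.50 did not pass (adjusted p = 0.315, limma).

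Lrp1 (ENSMUSG00000040249, chr10:127538157-127621148), a large endocytic receptor of the LDL receptor family that also binds calreticulin on dying cells, was at 105592 ± 13987 normalized counts (SD, n = 9). It was the steadiest of the 10 genes in SD of log2 values. The MET library was lowest at 80994, Whe10 ranged from 107961 to 131496 and Whe3 from 93219 to 108968. Whe10 and Whe3 overlapped (log2 difference 0.18, adjusted p = 0.530, limma).

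Mertk (ENSMUSG00000014361, chr2:128698915-128803162), the TAM receptor of clearing macrophages, was at 3008 ± 1002 normalized counts (SD, n = 9). The MET library was lowest at 1477, with a 95% Wilson interval of 1370 to 1593. In Whe10 it was at 4376 (Whe10_10A), 3422 (Whe10_11A), 4215 (Whe10_7A) and 3585 (Whe10_8A), and in Whe3 at 2138 (Whe3_11A), 1975 (Whe3_12A), 2834 (Whe3_5A) and 3048 (Whe3_7A). Every Whe10 clone lay above every Whe3 clone, and the MET clone lay below all of them. The means were 3899 ± 467 and 2499 ± 523 (SD, n = 4 each), a 1.56-fold difference that did not pass (log2 difference 0.66, standard error 0.153, adjusted p = 0.140, limma).

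Axl (ENSMUSG00000002602, chr7:25756500-25788924), the TAM receptor that responds to Gas6 but not to protein S in mice, was at 12231 ± 4055 normalized counts (SD, n = 9). It was at 17673 in the MET library. The Whe10 libraries were at 8029 (Whe10_10A), 13308 (Whe10_11A), 8198 (Whe10_7A) and 9368 (Whe10_8A), and the Whe3 libraries at 15537 (Whe3_11A), 17903 (Whe3_12A), 8318 (Whe3_5A) and 11747 (Whe3_7A). High and low clones occurred in both prefixes, and the log2 difference of -0.43 (standard error 0.252) did not pass (adjusted p = 0.383, limma). The ratio of Axl to Mertk counts was highest in the MET library, and was 1.83 to 3.89 in Whe10 and 2.93 to 9.07 in Whe3. Ratios are compared between libraries and not read as a ratio of molecules, because no exonic lengths were used. The ranges of the ratio overlapped between Whe10 and Whe3.

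Of the TAM ligands, Gas6 (ENSMUSG00000031451, chr8:13465374-13494535), which binds all TAM receptors, was at 29789 ± 6133 normalized counts (SD, n = 9). It ranged from 26413 to 35451 in Whe10 and from 24045 to 41240 in Whe3, and was lowest in the MET library at 21439. The means of Whe10 and Whe3 were 31088 and 30576, and the log2 difference was 0.049 (standard error 0.179, adjusted p = 0.900, limma). Pros1 (ENSMUSG00000022912, chr16:62854307-62929346), which encodes protein S, an anticoagulant cofactor and ligand of Mertk and Tyro3, was at 2366 ± 677 (SD, n = 9). It was highest in the MET library at 3832, and ranged from 1719 to 2449 in Whe10 and from 1794 to 2964 in Whe3 (log2 difference -0.12, adjusted p = 0.717, limma). The ratio of Gas6 to Pros1 counts was 5.59 in the MET library and between 9.84 and 16.4 in the other 8. In that clone the ligand counts therefore stood apart from the rest on both sides, a single library with no replicate check.

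Mfge8 (ENSMUSG00000030605, chr7:79133768-79149060), the secreted bridge between phosphatidylserine and integrins, was at 9117 ± 2057 normalized counts (SD, n = 9). The MET library was highest at 12668. The Whe10 libraries were at 7626 (Whe10_10A), 6780 (Whe10_11A), 6285 (Whe10_7A) and 8611 (Whe10_8A), and the Whe3 libraries at 10932 (Whe3_11A), 9160 (Whe3_12A), 10471 (Whe3_5A) and 9518 (Whe3_7A). Mfge8 ran opposite to Stab1 and Mertk, with every Whe3 clone above every Whe10 clone. The means were 7326 ± 1020 in Whe10 and 10020 ± 822 in Whe3 (SD, n = 4 each), 1.37-fold higher in Whe3, and did not pass (log2 difference -0.46, standard error 0.109, adjusted p = 0.144, limma).

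The promoters of the 4 genes without overlap between Whe10 and Whe3 are shown as RefSeq gives them for GRCm38.p6, as a window around the start, 5′ to 3′ on the strand of the gene. Capitals mark GAGGAA, a core of the sites of the macrophage factor PU.1, on either strand.
Stab1, chr14:31168592-31168891, minus strand: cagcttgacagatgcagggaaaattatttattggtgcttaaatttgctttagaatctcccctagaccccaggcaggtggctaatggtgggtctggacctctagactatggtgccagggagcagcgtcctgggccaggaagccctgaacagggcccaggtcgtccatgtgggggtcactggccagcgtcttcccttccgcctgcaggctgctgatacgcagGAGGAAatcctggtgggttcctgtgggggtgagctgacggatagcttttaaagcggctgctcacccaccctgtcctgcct
Mertk, chr2:128698665-128698964, plus strand: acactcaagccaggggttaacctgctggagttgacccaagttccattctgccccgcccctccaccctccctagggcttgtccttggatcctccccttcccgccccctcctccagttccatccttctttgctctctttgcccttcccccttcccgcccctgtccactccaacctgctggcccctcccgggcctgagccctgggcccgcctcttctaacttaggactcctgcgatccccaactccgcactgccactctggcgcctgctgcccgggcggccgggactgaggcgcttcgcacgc
Marco, chr1:120504975-120505274, minus strand: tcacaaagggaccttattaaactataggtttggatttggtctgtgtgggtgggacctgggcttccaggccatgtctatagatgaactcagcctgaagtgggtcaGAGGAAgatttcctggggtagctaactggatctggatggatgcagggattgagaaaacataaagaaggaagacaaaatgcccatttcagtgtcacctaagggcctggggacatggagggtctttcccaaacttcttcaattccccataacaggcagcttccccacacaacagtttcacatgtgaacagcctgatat
Mfge8, chr7:79149011-79149310, minus strand: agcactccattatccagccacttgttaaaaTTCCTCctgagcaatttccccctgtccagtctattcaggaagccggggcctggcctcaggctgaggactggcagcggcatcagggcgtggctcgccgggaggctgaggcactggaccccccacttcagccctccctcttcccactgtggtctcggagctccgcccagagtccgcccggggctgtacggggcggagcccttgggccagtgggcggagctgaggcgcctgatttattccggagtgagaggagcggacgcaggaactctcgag
Promoters were given for 8 of the 10 genes, without Msr1 and Scarb1. GAGGAA was found once each in Stab1, Marco, Mfge8 and Axl, and not in Mertk, Gas6, Pros1 or Lrp1, while 28.3% of 32851 promoters held it. The letters GGAATG of TEAD factors were found in Axl (14.7% of all promoters), and TGANTCA of AP-1 (7.81%) and CACGTG, an E-box (7.15%), in none of the 8. Of the genes higher in Whe10 without overlap, Stab1 and Marco held GAGGAA and Mertk did not, while Mfge8, lower in Whe10, also held it. These matches are descriptions of letters, not of binding.

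No macrophage or fibroblast marker passed the test between the prefixes. All 16 macrophage markers had a positive difference of Whe10 minus Whe3 (median 0.37, 0 called, 10 at an unadjusted p under 0.05, limma). Of all 16985 genes tested, 8910 had a positive and 8075 a negative difference, and 3141 had an unadjusted p under 0.05 (limma). Together the macrophage markers held 2.95 to 3.42% of the total in Whe10, 2.26 to 3.54% in Whe3 and 2.62% in the MET library. Of the 14 fibroblast markers, 11 had a negative difference (median -0.73, 0 called, 8 at an unadjusted p under 0.05), and the list held 0.708 to 1.19%, 1.32 to 2.43% and 2.24% in that order. With voom 0 markers of either list passed, and without Whe3_5A 1 of each did, Aif1 (log2 difference 0.82, adjusted p = 0.0365, limma) and Pdgfra (-2.08, adjusted p = 0.0435, limma). The part of these differences in those of the 10 genes was not tested. Each gene was therefore also set against the mean log2 level of each list in the same library, as a description. The list means themselves differed by 0.38 (macrophage) and -0.42 (fibroblast), Whe10 minus Whe3, and this is taken off the difference of every gene. The share of all genes without overlap on these scales was not computed. Against the macrophage markers, Stab1 was still higher in every Whe10 than in every Whe3 library, by 0.50 on the log2 scale, and Mertk by 0.28. Mfge8 was lower by 0.84 and Gas6 by 0.33, without overlap, although Gas6 overlapped before the list mean was taken off. Marco overlapped on this scale.

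Against the fibroblast markers, Axl and Mfge8 had differences of -0.0077 and -0.034 and overlapped between the prefixes. Stab1 (1.31), Mertk (1.08), Marco (1.44) and Lrp1 (0.60) were higher in all Whe10 libraries on that scale. Lrp1 overlapped before the list mean, lower in Whe10 by 0.42, was taken off. The level of Mfge8 was therefore lower in Whe10 on its own and against macrophage markers, but not against fibroblast markers.

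Across the 9 clones, 26 relations were tested, each with an exact two-sided permutation test and Benjamini-Hochberg adjustment over the 26. The macrophage and fibroblast scores were the mean z-scores of the marker lists, and they were themselves related inversely (r = -0.798, exact permutation p = 0.0092). In all, 6 relations passed by r, and 7 by rho, the added one being Axl with the macrophage score (rho = -0.817, adjusted p = 0.0400; r = -0.788, adjusted p = 0.0575, exact permutation tests). Mertk rose with the macrophage score (r = 0.901, adjusted p = 0.0133; rho = 0.917, adjusted p = 0.0171, exact permutation test). Leaving out the 2 clones with the most extreme scores, r was 0.944 (adjusted p = 0.0671), and after centring within Whe10 and Whe3 it was 0.916 (adjusted p = 0.144, exact permutation tests). Without the MET library it still passed by r (r = 0.960, adjusted p = 0.0071) but not by rho (rho = 0.905, adjusted p = 0.0593, exact permutation tests, n = 8).

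Axl fell as Mertk rose (r = -0.857, adjusted p = 0.0169; rho = -0.867, adjusted p = 0.0234, exact permutation test). Leaving out the 2 clones with Axl farthest from its median, r was -0.717 (adjusted p = 0.304), and centred within the prefixes it was -0.847 (adjusted p = 0.144, exact permutation tests). With 7 and 8 clones this relation kept its direction but did not pass. The fibroblast score was related to Marco (r = -0.909, rho = -0.883), Mertk (r = -0.871, rho = -0.900) and Mfge8 (r = 0.848, rho = 0.817), with adjusted p by r of 0.0133, 0.0133 and 0.0169, and by rho of 0.0200, 0.0176 and 0.0400 (exact permutation tests). Within the prefixes r fell to -0.650, -0.280 and 0.237 (adjusted p = 0.426, 0.765 and 0.790), and without the 2 farthest clones it was -0.600, -0.727 and 0.580, and in neither setting did these relations pass. Stab1 against the fibroblast score also passed, by r (r = -0.921, adjusted p = 0.0133) and by rho (rho = -0.967, adjusted p = 0.0043, exact permutation tests). Without the 2 farthest clones r was -0.884 (adjusted p = 0.112), and centred within prefixes it was -0.462 (adjusted p = 0.681, exact permutation tests). The values of Stab1, Marco, Mertk and Mfge8 each fall into separate levels by prefix. Their pooled relations with the fibroblast score therefore cannot be told apart from the prefixes. Neither Gas6 nor Pros1 was related to Axl or Mertk by r at an adjusted p under 0.05. For Mertk with Gas6, r was 0.726 (adjusted p = 0.0719) over 9 clones and 0.877 (adjusted p = 0.144, exact permutation tests) centred within prefixes.

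**Figure D3:**
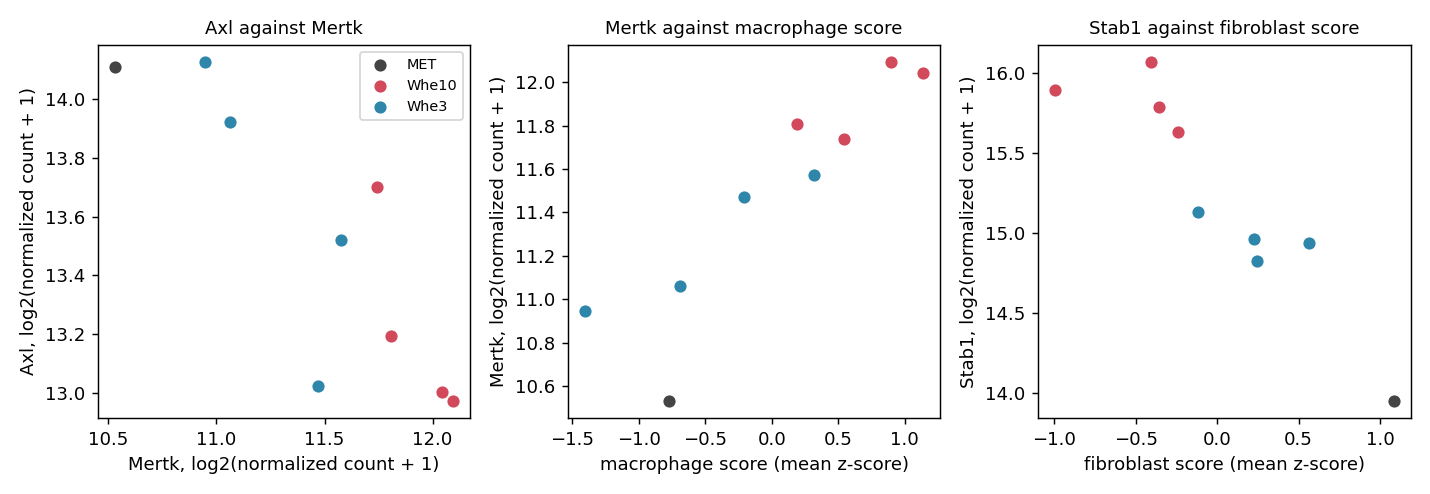
Log2(normalized count + 1) of Axl against Mertk, of Mertk against the macrophage score and of Stab1 against the fibroblast score (scores are mean z-scores of the marker lists); each point is 1 of 9 clones, coloured by prefix. Axl falls as Mertk rises among the Whe10 clones and, except between Whe3_5A and Whe3_7A, among the Whe3 clones, while Stab1 separates by prefix.

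The other genes of uptake were taken as 5 lists with 63 genes tested. None of the 63 passed (0 by limma and 0 by voom), against 0.171% of all genes, and the smallest adjusted p was 0.101 (limma). At an unadjusted p under 0.05 there were 26 of the 63, against 3141 of all 16985 genes tested (limma). Of 18 genes listed as other scavenger receptors, 12 had a positive difference, with a median of 0.36. The list is broad, and some of its genes, such as Lrp5, Lrp6 and Scarb2, are not mainly scavenger receptors of the cell surface. Among all 16985 genes tested 8910 had a positive difference, which also stands beside the counts of the lists that follow. The 4 Whe10 libraries lay above Whe3 in 4 (Scarb2, Scarf1, Cd163 and Lrp6) and below in 0, where 5.24% of all genes lay above and 4.23% below. Mrc1, the mannose receptor, was at 23676 ± 7465 and Colec12 at 7776 ± 1986 normalized counts (SD, n = 9), the highest of the list by count, with log2 differences of 0.24 and 0.35. Scarf1, which binds modified lipoproteins and C1q-coated dying cells, was at 1087 on average in Whe10, 377 in Whe3 and 48.1 in the MET library (log2 difference 1.64, standard error 0.333, adjusted p = 0.113, limma). Its order of the prefixes was that of Stab1, Mertk and Marco.

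Of 15 other receptors and bridges for apoptotic cells that were tested, 6 had a positive difference, with a median of -0.10, and Timd4, Havcr1 and Adgrb1 were not listed. Whe10 lay above Whe3 in 1 (Trem2, against 5.24% of all genes) and below in 2 (Thbs1 and Anxa1, against 4.23%). Thbs1, the thrombospondin that bridges dying cells to Cd36 and integrins, was at 383797 normalized counts in the MET library, 77856 to 151207 in Whe10 and 205001 to 246919 in Whe3, the order of Mfge8 (log2 difference -0.94, adjusted p = 0.155, limma). Calr was at 27300 ± 2138 (SD, n = 9), with a difference of -0.071. Tyro3, the remaining TAM receptor, was at 584 in the MET library, 150 to 262 in Whe10 and 242 to 485 in Whe3 (adjusted p = 0.204, limma), and the ranges of Whe10 and Whe3 overlapped.

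Of 16 genes of the engulfment machinery, 13 had a positive difference, with a median of 0.17. Whe10 lay above Whe3 in 3 (Abca7, Rab5a and Rubcn, against 5.24% of all genes) and below in 2 (Crk and Gulp1, against 4.23%). Ucp2 was at 15544 ± 4440 and Rab7 at 14280 ± 1038 normalized counts (SD, n = 9), with differences of 0.59 and 0.081. Rubcn, which acts in LC3-associated phagocytosis, was at 2030 on average in Whe10 and 1576 in Whe3 (log2 difference 0.37, standard error 0.070, adjusted p = 0.101, limma). Among 9 genes that restrain uptake or shed receptors, the median was 0.20 and Whe10 lay above Whe3 in 1 (5.24% of all genes), Adam17, a protease that cleaves Mertk, at 4318 against 3759 on average (log2 difference 0.20, adjusted p = 0.201, limma). Sirpa, the receptor of Cd47, was at 35634 ± 7956 and Ptpn6 at 5088 ± 966 (SD, n = 9). The 5 genes that mature Gas6, protein S or Lrp1 had a median of 0.034 and no separation by prefix, with Lrpap1, the chaperone of Lrp1, at 4386 ± 513 and Furin at 4229 ± 411. The genes named for lying apart, as well as Scarf1, Tyro3, Rubcn and Thbs1, were named after their values were seen, apart from those of highest level in a list.

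**Figure D4:**
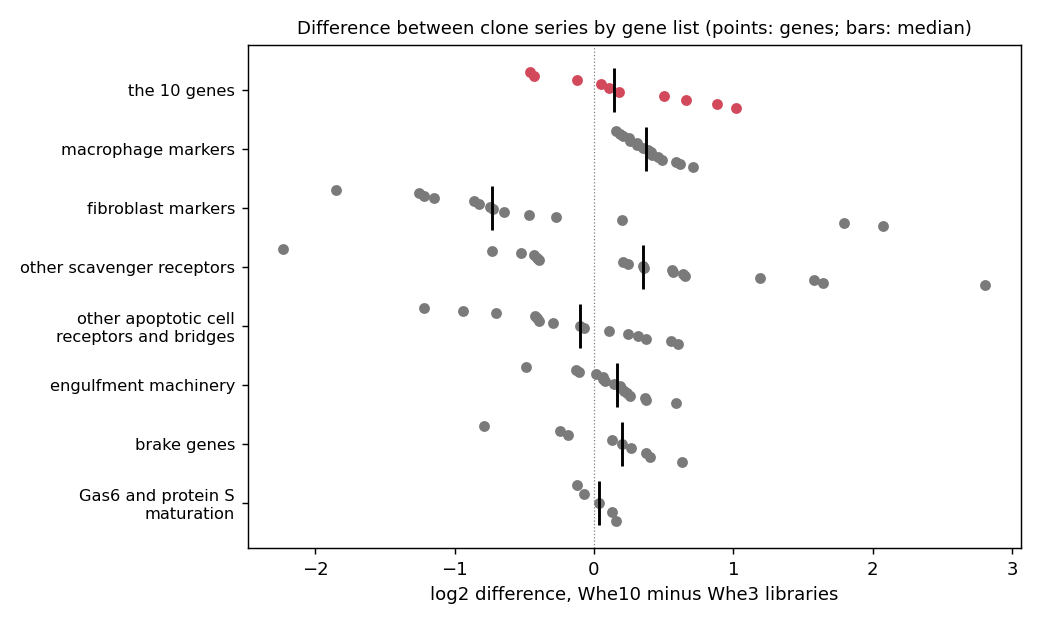
Log2 difference of Whe10 minus Whe3 libraries (4 each) for the 10 genes (red) and for the markers and other uptake genes by list (grey); points are genes and black bars are medians. All macrophage markers lie above 0 (median 0.37), most fibroblast markers below (median -0.73), and the 10 genes spread on both sides (median 0.14).

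The genes most like Marco, Stab1 and Mertk, the 3 with the largest SD of log2 values, were taken by Pearson's r over the 9 clones among 12301 genes averaging 50 normalized counts or more, as a description. They were C5ar1 (0.977), Mgrn1 (0.970) and Gdf3 (0.967) for Stab1, Trafd1 (0.991), Zbtb34 (0.982) and Tor1aip1 (0.982) for Mertk, and Gsk3a (0.969), Tmem131 (0.963) and Pcbp1 (0.955) for Marco. The points share the prefixes, and without the MET library only 1 of these 9 genes, Gsk3a, remained among the nearest 3.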

How the data were processed

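RNA of 9 MPC clones was made into stranded mRNA libraries. The submitters' processing notes name FastQC 0.11.9, STAR 2.7.10, RSEM 1.3.3 and GRCm38, with no role given. The authors deposited log2 values of scaled counts with an offset of 4 for 18049 genes (18033 identifiers matched the gene table), as 1 table of the whole series. The 6 columns of other samples were not used. The column names match no sample title, so the clones were used as a single group, and the prefixes as possible batches. A protocol field names NMS-P937 although the treatment is given as none, and the clones were taken as untreated.

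The offset was removed, and whole reads were recovered for 100% of nonzero values under 1000 reads (tolerance 0.1). Wilson intervals (95%) and the floor of 3 reads cover counting error only. The most similar pair of libraries, Whe10_10A and Whe10_8A, had a chi-square per degree of freedom of 22.6 (15353 genes), so no library was counted more than once. Differences between Whe10 and Whe3 were tested with limma 3.58.1 (R 4.3.3; trend, pseudocount 1, mean of at least 1, Benjamini-Hochberg over all genes, threshold 0.05) and checked on simulated data. Fold changes on this scale understate the change of low genes. Other computations used Python (3.11.15) and its packages scipy (1.17.1), pandas (2.3.3), numpy (2.4.6) and matplotlib (3.10.9). Gene positions and promoters are from RefSeq, GRCm38.p6.

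The genes and lists were chosen with earlier results of these data known. Named are the 10 genes, the called and the 2 highest genes of each list, checks of the libraries and the 3 nearest genes of the 3 most variable genes; Mettl3 and Xist served as checks. Alternatives were rescaling to the upper quartile or to the total, pseudocounts of 0.1 and 4, no filter or a mean of at least 50, no trend, voom on recovered reads, and leaving out each library. Scaling to the total and setting genes against the markers were chosen after seeing the data.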

Additional observations from a re-analysis of the deposited data

Results flagged for a closer look

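Of 73 genes of the lists, 7 had a library whose gap to the nearest other library was a larger part of the range over the 9 clones than the 95% critical value of Dixon's ratio. Chance gives about 3.65 only if the 9 values of a gene come from 1 normal distribution. The ratio was taken on counts without a log, over prefixes that differ in level, and in all 7 the library was the highest. The number 7 is therefore not a test against chance. Among the 10 genes this was Marco alone, with a ratio of 0.602, at 187 normalized counts in Whe10_7A against 79.5 in the next library.

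The others were Scara5 (0.859), at 44.3 normalized counts in Whe3_7A against 6.24, Megf10 (0.759), at 1595 in Whe3_11A against 507, and Cd24a (0.680), at 277 in Whe3_11A against 106. Edil3 (0.675) was at 565 in the MET library against 223. Pecam1 (0.574) was at 34.0 in Whe3_7A against 14.5, and Elmo2 (0.502) at 2458 in Whe3_11A against 2252.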

How the results depend on the processing

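The number of genes that differed between Whe10 and Whe3 was 29, and 15 without a filter and 17 without a trend. Leaving out a library each gave 10 to 263, the highest without Whe3_5A. That library had the largest share of acinar markers, but not the only reads of them. Among the 10 genes the number called went from 1 to 0 with the upper quartile, a pseudocount of 4, no filter or no trend, and was 0 to 1 when a library was left out. Among the 63 other uptake genes it stayed at 0 in all settings except without Whe3_5A (0 to 4 over the libraries left out), where Scarf1, Cd300lf, Rubcn and Lrp5 passed. Of the 9 nearest genes 1 remained without the MET library. Relations that passed by r went from 6 to 1 without it (Mertk with the macrophage score), to 0 without the 2 farthest clones and to 0 centred within prefixes. By rho, that relation did not pass without the MET library, while Stab1 with the fibroblast score did (rho = -0.952, adjusted p = 0.0297, exact permutation test). The centred test reorders clones only within each prefix, so few orders exist and a low adjusted p is hard to reach. The cause of these changes was not tested. Small differences turned sign when a library was left out: Msr1 ranged from -0.030 to 0.23, Gas6 from -0.056 to 0.20 (-0.017 without Whe10_10A, -0.024 without Whe3_11A) and Pros1 from -0.23 to 0.011. The r of Mertk with Pros1 turned to 0.126 without the 2 farthest clones and 0.238 centred. The macrophage score turned with Msr1 to -0.039 and with Pros1 to 0.298 without the 2 clones, and, centred, to 0.285 with Pros1, -0.019 with Marco and -0.721 with Lrp1, while the fibroblast score turned to 0.550 with Lrp1. The 4 genes without overlap between the prefixes kept that number under both other scalings. Depth limits Marco, at 4 to 129 reads, more than the other genes, which had at least 596. No paired analysis was possible because the numbers in the column names do not pair clones and all clones share a single condition.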
